A study of Mus musculus with 12 samples.

Results

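Transcripts of 8 genes that encode bacterial sensors of the cell surface were followed in mouse neutrophils with and without Rab27a. The genes are the Toll-like receptor genes Tlr1, Tlr2, Tlr4, Tlr5 and Tlr6, the co-receptor gene Cd14, and the TREM receptor genes Trem1 and Trem3. They were chosen by name, with earlier results of these data known. All 8 were among the 15986 genes of the deposited tables, and all 8 passed the filter on low counts that left 10802 genes for testing. Mature neutrophils were taken from the bone marrow of C57BL/6 mice by positive selection for Ly6G and kept in culture for 6 h. The groups were Rab27a knockout cells with 5 µM CpG-B, Rab27a knockout cells without it, wild-type cells with 5 µM CpG-B and wild-type cells without it, with 3 libraries of polyA RNA each. CpG-B is a synthetic DNA oligonucleotide that binds the endosomal receptor TLR9, and the labels are not uniform on whether the cells without it had vehicle or nothing. The sources used here do not give the knockout allele, the age and sex of the mice, or whether animals were pooled. Nothing says whether the libraries of a group came from separate mice, so p-values measure only the spread among the libraries, which could be technical.

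Surface Toll-like receptors read conserved bacterial molecules. TLR2 binds bacterial lipopeptides in a pair with TLR1 or TLR6, TLR5 binds flagellin, and TLR4 binds lipopolysaccharide that CD14 hands to it. All of them signal through the adaptor encoded by Myd88 to NF-kB. TREM1 and TREM3 are receptors of the immunoglobulin superfamily that signal through the adaptor encoded by Tyrobp and are known in neutrophils and monocytes for raising the response to Toll-like receptor ligands.

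The annotated start regions of these genes differ in sequence content. Promoter windows from RefSeq, read on the mouse assembly GRCm38.p6 from 250 bases before to 50 bases after the annotated start, were held for 5 of the 8 genes in 7 windows. A window is shown for Tlr2, which was higher with CpG in both genotypes, for Tlr5, which was lower with CpG in knockout cells, and for Trem1, whose level moved little. The Tlr2 window lies at chr3:83841559-83841858 (minus strand), the Tlr5 window at chr1:182954538-182954837 (plus strand) and the Trem1 window at chr17:48232489-48232788 (plus strand), and capitals mark matches to the NF-kB consensus.
Tlr2 promoter: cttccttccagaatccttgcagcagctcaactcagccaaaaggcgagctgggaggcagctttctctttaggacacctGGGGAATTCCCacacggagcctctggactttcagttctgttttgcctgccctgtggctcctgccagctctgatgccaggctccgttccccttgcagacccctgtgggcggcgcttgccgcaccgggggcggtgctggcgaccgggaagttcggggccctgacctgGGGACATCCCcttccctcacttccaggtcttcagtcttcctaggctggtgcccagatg
Tlr5 promoter: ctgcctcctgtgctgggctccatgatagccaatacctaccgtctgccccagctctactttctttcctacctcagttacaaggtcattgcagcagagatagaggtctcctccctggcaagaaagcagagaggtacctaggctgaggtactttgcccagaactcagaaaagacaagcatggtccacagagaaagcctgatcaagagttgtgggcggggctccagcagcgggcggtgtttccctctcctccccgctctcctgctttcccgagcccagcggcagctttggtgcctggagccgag
Trem1 promoter: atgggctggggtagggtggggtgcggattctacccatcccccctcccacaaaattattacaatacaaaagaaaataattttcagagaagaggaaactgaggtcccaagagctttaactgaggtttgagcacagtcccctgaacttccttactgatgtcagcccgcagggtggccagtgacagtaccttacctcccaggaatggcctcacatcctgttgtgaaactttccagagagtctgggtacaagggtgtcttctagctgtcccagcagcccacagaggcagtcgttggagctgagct
The 5 motifs searched on both strands were the NF-kB consensus, TGANTCA (AP-1), GAGGAAGT (PU.1), TTGCNNAA (C/EBP) and TATAAA. Of the 7 windows, 1 held the NF-kB consensus, that of Tlr2, with a pair of overlapping matches 173 and 172 bases before the start and a match 8 bases before it. Among 32807 RefSeq promoter windows of this length, 8.46% held the NF-kB consensus, 7.82% TGANTCA, 3.20% GAGGAAGT, 10.8% TTGCNNAA and 13.6% TATAAA. The Tlr5 and Trem1 windows held none of the 5 motifs, which says only that these letters are not in these windows.

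The libraries held 10928823 to 15513280 estimated counts, and levels between groups are given as CPM, counts per 1000000, after TMM scaling. Rab27a, the check of the genotype labels, stood at 107 ± 9.78 CPM in knockout and 236 ± 42.9 CPM in wild-type cells with CpG, and at 113 ± 17.4 CPM in knockout and 272 ± 54.9 CPM in wild-type cells without it (SD, n = 3 each), and no knockout library reached a wild-type one. The sources used here do not say which part of Rab27a was deleted, and its counts sum all transcripts. The 10 mature neutrophil markers summed to between 53410 and 90698 CPM in every library, and 0 of the 10 passed the test in any comparison. The knockout libraries differ by number in erythroid and B cell markers. The 5 erythroid markers summed to 381 and 319 CPM in the knockout libraries numbered 1 (with CpG and without it), to 1223 and 1357 CPM in those numbered 2, to 4545 and 4388 CPM in those numbered 3, and to 2837 to 3753 CPM in wild-type libraries. B cell markers summed to 4.97 and 5.10 CPM in the knockout libraries numbered 1, to 23.3 and 23.6 CPM in those numbered 2 and to 73.2 and 74.1 CPM in those numbered 3, against 21.3 to 31.7 CPM in wild-type libraries. Calls of the 8 genes that change without both libraries numbered 1 or 3 are given with and without them.

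With CpG, Cd14 and Tlr2 rose in both genotypes. Tlr5 and Tlr1 fell in knockout cells, Trem3 rose there, and Trem1, Tlr4 and Tlr6 did not pass the test in either genotype. These calls are from a fit without pairing of libraries. With a block on genotype and library number together, Tlr5 also passed in wild-type cells (edgeR adjusted p = 0.00338). Tlr4 then passed in knockout cells (edgeR adjusted p = 0.0226), and both were lower with CpG. Tlr5 in wild-type cells passed in DESeq2 as well (DESeq2 adjusted p = 0.0304). A gene is said to rise or fall at an adjusted p of at most 0.05 in the quasi-likelihood F test of edgeR, with Benjamini-Hochberg adjustment over the 10802 genes, and every adjusted p below is from that test unless another is named. In knockout cells 5 of the 8 genes passed (3 rose and 2 fell), where 11.6% of all genes tested passed (7.57% rose and 4.06% fell). In wild-type cells 2 of the 8 passed (both rose), where 6.04% of all genes passed (4.74% rose). The median log2 fold change of the 8 genes was -0.12 in knockout and 0.11 in wild-type cells, and that of all genes was -0.01 in each. In these bulk libraries a change in the RNA per cell and a change in the share of cells that carry a transcript cannot be told apart.

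**Figure D1:**
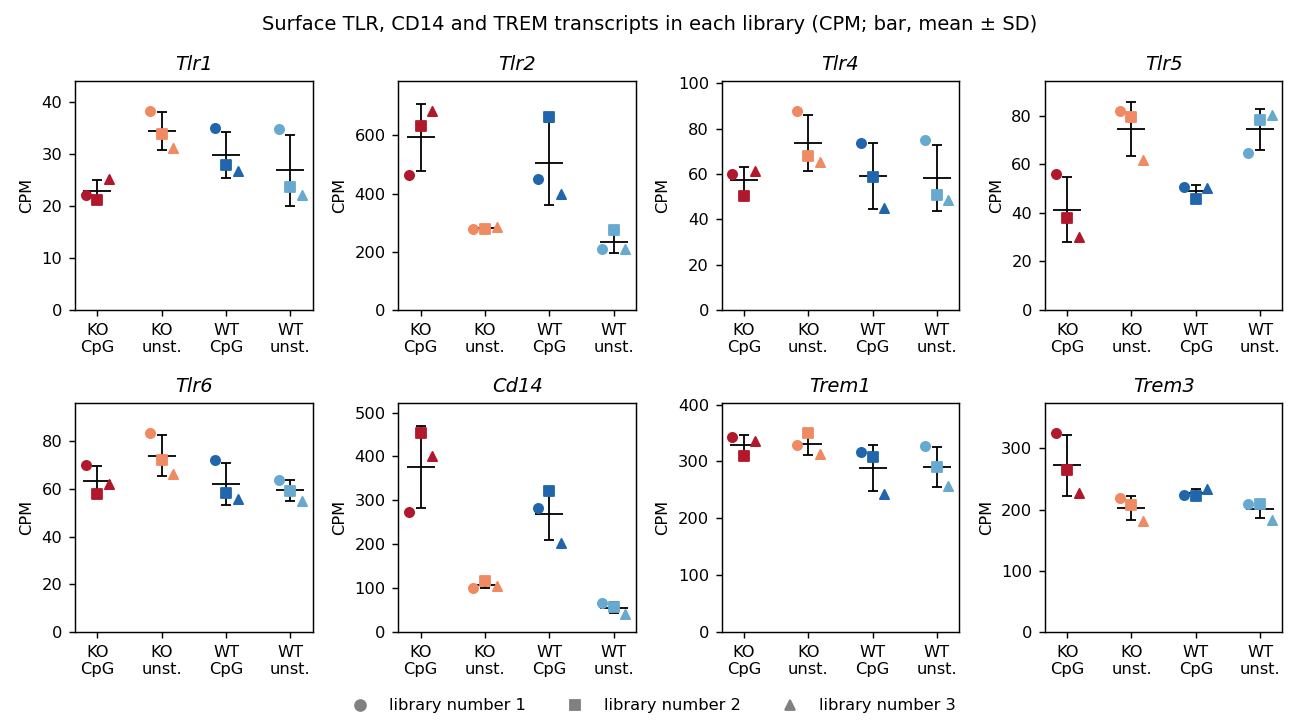
Level of each of the 8 genes in each library, in CPM on a linear axis from 0. Symbols give the library number within its group, the horizontal bar the mean and the whiskers the SD of 3 libraries. Cd14 and Tlr2 stand higher in every CpG library than in any unstimulated library of the same genotype, and Trem1 lies between 242 and 349.9 CPM throughout.

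Cd14, which hands lipopolysaccharide to TLR4, had 273, 453 and 402 CPM in knockout libraries with CpG, against 101, 116 and 106 CPM in knockout libraries without it. It had 283, 321 and 203 CPM in wild-type libraries with CpG, against 67.7, 57.5 and 42.2 CPM in wild-type libraries without it. Every CpG library was above every unstimulated library, in both genotypes. The rise was 3.49-fold in knockout cells (log2 1.80, SE 0.22; adjusted p = 7.36e-05) and 4.83-fold in wild-type cells (log2 2.27, SE 0.22; adjusted p = 2.02e-05). Leaving out any 1 of the 12 libraries kept both calls.

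Markers of monocytes and macrophages, cells that also carry CD14, moved with CpG as well. The 10 markers of that list summed to 1246 to 1657 CPM in knockout libraries with CpG and 548 to 609 CPM in knockout libraries without it. In wild-type libraries they summed to 1179 to 1233 CPM with CpG and 731 to 743 CPM without it. Csf1r, the receptor of macrophage colony-stimulating factor, and Adgre1, an adhesion receptor of macrophages, were the 2 of 10 that rose in both genotypes, and the other 8 did not pass. No marker of the list was at 0. Their part in the rise of Cd14 was not tested.

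Tlr2, the shared partner of TLR1 and TLR6, had 463, 631 and 683 CPM in knockout libraries with CpG and 278, 278 and 285 CPM in knockout libraries without it. Wild-type libraries had 449.7, 663 and 397 CPM with CpG and 211, 274 and 211 CPM without it. Again no CpG library overlapped with the unstimulated libraries of its genotype, and the CpG libraries were spread more widely than the unstimulated ones. The rise was 2.11-fold in knockout cells (log2 1.08, SE 0.19; adjusted p = 0.0019) and 2.17-fold in wild-type cells (log2 1.11, SE 0.19; adjusted p = 0.00252). Both calls held without any 1 library. The CpG effect on Tlr2 in knockout cells minus that in wild-type cells was -0.04 on the log2 scale. Its 95% interval was -0.61 to 0.54, so a difference within that range is not excluded.

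The partner genes of TLR2 gave no rise that passed the test. Tlr1 had 22.1, 21.1 and 25.3 CPM in knockout libraries with CpG, against 38.4, 33.8 and 31.2 CPM in knockout libraries without it. In wild-type libraries Tlr1 had 35.0, 28 and 26.7 CPM with CpG and 34.8, 23.7 and 22.1 CPM without it. The knockout groups did not overlap and the wild-type groups did. Tlr1 fell by 0.59 on the log2 scale in knockout cells (SE 0.17; adjusted p = 0.0375), and its log2 fold change in wild-type cells was 0.16 (SE 0.17; adjusted p = 0.788). The knockout call was lost in edgeR without knockout unstimulated library 1 (adjusted p = 0.149) or 2 (0.0956), without knockout CpG library 1 (0.0847) or 2 (0.122), and without both knockout libraries numbered 1 (0.209).

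The genotypes differed in the CpG effect on Tlr1 by -0.75 on the log2 scale (SE 0.24, 95% interval -1.27 to -0.23), the largest such difference among the 8 genes. Its p before adjustment was 0.00807 and its adjusted p 1.00 in the edgeR interaction test, in which 0 of 10802 genes passed (0%) and 365 (3.38%) had an unadjusted p under 0.05. DESeq2 called 2 genes in that test, and Tlr1 was not among them (DESeq2 adjusted p = 1.00). None of the 8 genes passed in any interaction fit run.

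Tlr6, the other partner of TLR2, had 70.0, 57.7 and 61.9 CPM in knockout libraries with CpG and 83.3, 72.2 and 66.2 CPM in knockout libraries without it. In wild-type libraries it had 72.0, 58.4 and 55.6 CPM with CpG, against 63.6, 59.2 and 55.1 CPM without it. The groups overlapped in both genotypes. Its log2 fold change was -0.23 in knockout cells (SE 0.13; adjusted p = 0.339) and 0.06 in wild-type cells (SE 0.13; adjusted p = 0.908). Tlr1 and Tlr6 lie side by side on chromosome 5 with 0 RefSeq genes between them. Of 3071 windows of 50 bases along the Tlr1 transcript used for this comparison, 454 (14.8%) also occur in Tlr6, with a longest shared run of 229 bases, and no other pair of the 8 genes shares such a window. Reads from those stretches were divided between the genes by the estimation, which makes the separate values of Tlr1 and Tlr6 less certain. Stretches shared with genes outside the 8 were not searched.

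Tlr5, the flagellin receptor, had 55.9, 37.9 and 30.3 CPM in knockout libraries with CpG, against 81.9, 79.6 and 61.6 CPM in knockout libraries without it. It had 50.6, 45.7 and 50.2 CPM in wild-type libraries with CpG, against 64.7, 78.3 and 80.2 CPM in wild-type libraries without it. All CpG libraries were below all unstimulated libraries of their genotype. It fell by 0.85 on the log2 scale in knockout cells (SE 0.19; adjusted p = 0.00869), a 1.80-fold drop. In wild-type cells the log2 fold change was -0.61 (SE 0.19; adjusted p = 0.0817). In a fit that blocks on genotype and library number together, and so compares wild-type libraries of equal number, the wild-type adjusted p was 0.00338 in edgeR and 1824 of the 10802 genes (16.9%) passed in place of 652. The wild-type adjusted p was 0.0125 without both knockout libraries numbered 1 and 0.0176 without both numbered 3 in edgeR. The difference in the CpG effect between genotypes was -0.24 (95% interval -0.81 to 0.33), so a weaker effect in wild-type cells was not shown.

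The values of Tlr5 and Tlr1 rest mostly on predicted transcripts. RefSeq gives Tlr5 9 transcripts in the tables, and the 1 curated among them, NM_016928, carried 7.05% to 47.8% of its estimated counts depending on the library. Counted over curated transcripts alone, Tlr5 had a log2 fold change of -0.01 in knockout cells (SE 0.56; edgeR adjusted p = 1.00) and Tlr1 one of -1.09 (SE 1.49; adjusted p = 0.793), so neither call held on that count. Of the 9 Tlr1 transcripts, 2 are curated and 8 were at 0 in at least 1 library. Cd14 has 1 transcript, and the curated transcript of Tlr2 carried 93.9% to 96.7% of its counts. The calls of Cd14 and Tlr2 held over curated transcripts alone in both genotypes.

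Tlr4, the lipopolysaccharide receptor, had 59.8, 50.4 and 61.3 CPM in knockout libraries with CpG and 87.8, 68.1 and 65.2 CPM in knockout libraries without it. In wild-type libraries it had 73.9, 58.7 and 45.0 CPM with CpG, against 74.8, 51.0 and 48.7 CPM without it. The knockout groups did not overlap and the wild-type groups did, and 24.2% of all genes had non-overlapping groups in the knockout comparison and 25.7% in the wild-type one. The log2 fold change was -0.37 in knockout cells (SE 0.20; adjusted p = 0.311) and 0.03 in wild-type cells (SE 0.20; adjusted p = 0.977). With the block on genotype and library number, the fall of Tlr4 in knockout cells passed (log2 -0.36; edgeR adjusted p = 0.0226). In that fit 2591 of the 10802 genes passed in knockout cells, in place of 1257. Cd14 therefore rose without a rise of Tlr4 that passed the test.

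**Figure D2:**
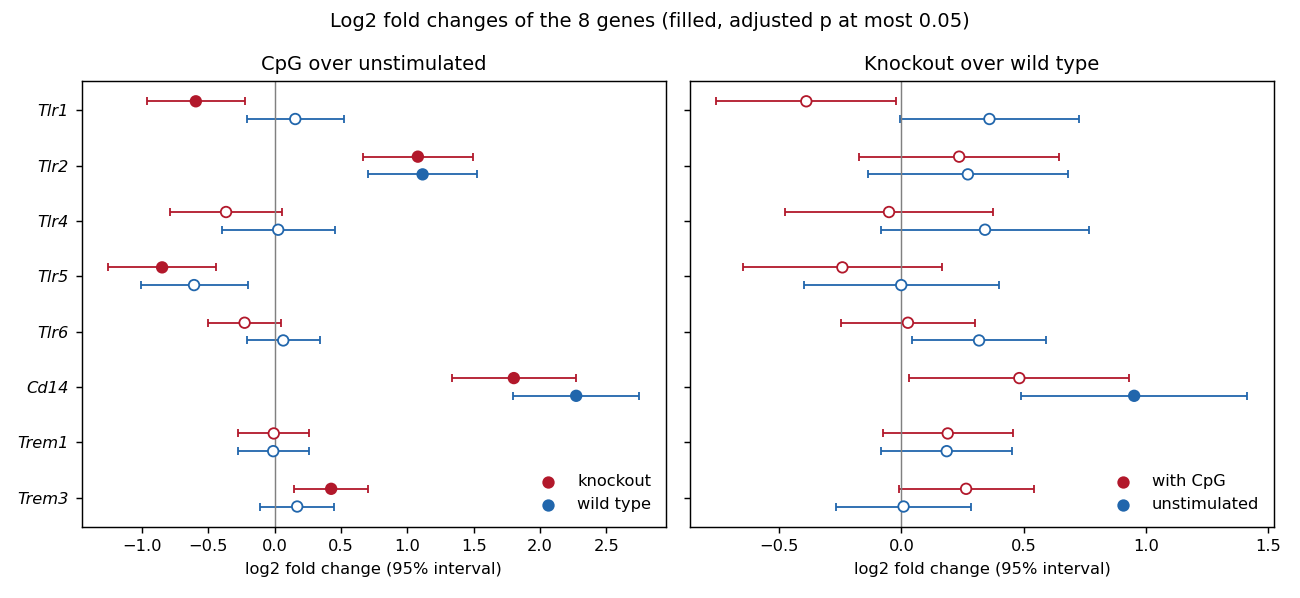
Log2 fold changes of the 8 genes with 95% intervals from the edgeR fit, for CpG over unstimulated cells in each genotype (left) and for knockout over wild-type cells in each condition (right). Filled points have an adjusted p of at most 0.05. They are Cd14 and Tlr2 in both genotypes, Trem3, Tlr1 and Tlr5 in knockout cells, and Cd14 in unstimulated knockout against wild-type cells.

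Of the TREM genes, Trem3 rose in knockout cells and Trem1 passed in neither genotype. Trem1 had 343, 309 and 335 CPM in knockout libraries with CpG and 329, 349.9 and 313 CPM in knockout libraries without it. It had 316, 308 and 242 CPM in wild-type libraries with CpG and 327, 289.8 and 256 CPM in wild-type libraries without it. Groups overlapped in both genotypes, and the log2 fold change was -0.01 in each, with 95% intervals of -0.27 to 0.26 in knockout and -0.28 to 0.26 in wild-type cells (adjusted p = 0.989 in knockout and 0.988 in wild-type cells). As fold changes, these intervals run from 0.828 to 1.198 in knockout and from 0.825 to 1.19 in wild-type cells.

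Trem3, the neighbouring receptor gene, had 325, 264 and 227 CPM in knockout libraries with CpG, against 219, 207 and 181 CPM in knockout libraries without it. It had 223, 222 and 234 CPM in wild-type libraries with CpG, against 209.8, 209.8 and 184 CPM without it. CpG libraries were above unstimulated ones in both genotypes without overlap, by a small margin. The rise was 1.34-fold in knockout cells (log2 0.43, SE 0.13; adjusted p = 0.0476), and the log2 fold change in wild-type cells was 0.17 (SE 0.13; adjusted p = 0.623). The knockout call was lost when any of 10 of the 12 libraries was left out, all but wild-type unstimulated library 3 and knockout CpG library 3, with edgeR adjusted p of 0.0540 to 0.203. It was lost too without both knockout libraries numbered 1 (adjusted p = 0.158). Other settings that lost it in edgeR were no filter (adjusted p = 0.0631), the fit of only the libraries compared (0.112) and curated transcripts alone (0.0679).

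Same-numbered wild-type libraries gave the CpG effect as 3 separate ratios. The log2 ratio of CPM with CpG to CPM without it was 2.06 to 2.48 for Cd14 and 0.91 to 1.27 for Tlr2, and all 3 ratios were above 0 for both. For Tlr5 all 3 were below 0, between -0.78 and -0.35. Trem3 was higher with CpG in 3 of 3 pairs by at most 0.35, and Tlr1 in 3 of 3 by at most 0.27. Tlr4 (-0.11 to 0.20), Tlr6 (-0.02 to 0.18) and Trem1 (-0.08 to 0.09) had ratios on both sides of 0. Wild-type libraries numbered 1 were the highest of their group for Tlr1, Tlr4, Tlr6 and Trem1 in both conditions.

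**Figure D3:**
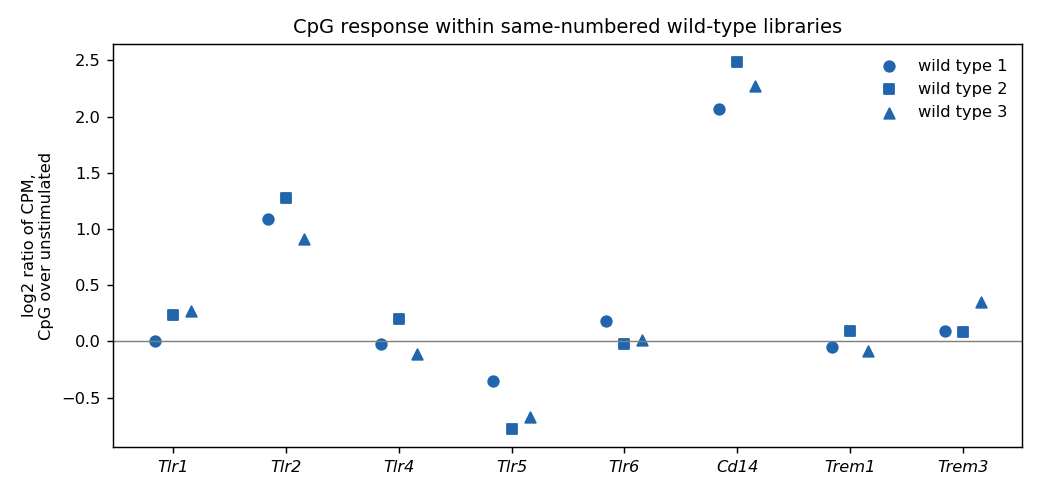
Log2 ratio of CPM with CpG to CPM without it in each pair of same-numbered wild-type libraries, 1 symbol per pair. The 3 ratios of Cd14, Tlr2 and Tlr5 keep the same side of 0 and stand apart from those of Tlr4, Tlr6 and Trem1, which lie between -0.11 and 0.20.

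Between genotypes 1 of the 8 genes passed the test, Cd14 in unstimulated cells. Cd14 had 101, 116 and 106 CPM in unstimulated knockout libraries, against 67.7, 57.5 and 42.2 CPM in unstimulated wild-type libraries, without overlap. This was 1.93-fold (log2 0.95, SE 0.22; adjusted p = 0.0206). In unstimulated cells 1 of the 8 genes passed, where 4.75% of all genes passed (2.11% higher in knockout cells). The call was lost in edgeR without wild-type library 2 (adjusted p = 0.0536), without wild-type library 3 (0.0902) or without knockout library 2 (0.0905), and it held without both knockout libraries numbered 1 (0.0200) or both numbered 3 (0.0465). Monocyte and macrophage markers summed to less in unstimulated knockout libraries (548 to 609 CPM) than in unstimulated wild-type libraries (731 to 743 CPM). Ly6c2 made the largest part of that gap, at 318 CPM in knockout and 444 CPM in wild-type cells. Ccr2, F13a1 and Fcgr1 averaged higher in knockout cells and the other markers lower, and 0 of the 10 passed the test. Their part in the Cd14 difference was not tested.

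Tlr2 and Tlr6 were also higher in every unstimulated knockout library than in any unstimulated wild-type library, so that with Cd14 the groups did not overlap for 3 of the 8 genes, against 25% of all genes. Neither passed the test. The log2 fold change was 0.27 for Tlr2 (SE 0.19; adjusted p = 0.52) and 0.32 for Tlr6 (SE 0.13; adjusted p = 0.208). The median over the 8 genes was 0.29 and that over all genes -0.01. Tlr1 (0.36; edgeR adjusted p = 0.294) and Tlr4 (0.34; edgeR adjusted p = 0.418) did not pass, and Tlr5, Trem1 and Trem3 lay between -0.00 and 0.19.

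With CpG, 0 of the 8 genes differed between knockout and wild-type cells, where 3.92% of all genes passed. Before adjustment 2 of the 8 had an edgeR p under 0.05, Cd14 and Tlr1, and 18.1% of all genes did. Cd14 had 273, 453 and 402 CPM in knockout and 283, 321 and 203 CPM in wild-type libraries with CpG, which overlapped (log2 0.48, SE 0.21; adjusted p = 0.241). With CpG, Tlr1 stood lower in each knockout library than in each wild-type library (log2 -0.39, SE 0.17; adjusted p = 0.247), and 20.4% of all genes had non-overlapping groups there. DESeq2 and the other alternatives also called 0 of the 8 in this comparison. The unstimulated knockout libraries enter both the genotype difference of Cd14 and its CpG effect in knockout cells, and the interaction for Cd14 was -0.47 on the log2 scale (95% interval -1.11 to 0.17; edgeR adjusted p = 1.00).

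Per transcript length the TREM genes stood above the Toll-like receptor genes in unstimulated cells. Levels between genes are compared in TPM, transcripts per 1000000, from the deposited tables, summed per gene, as mean ± SD of 3 libraries. In unstimulated wild-type cells the order was Trem3 (338 ± 29.0 TPM), Trem1 (181 ± 28.8 TPM), Tlr2 (115 ± 21.8 TPM), Cd14 (51.5 ± 12.8 TPM), Tlr6 (28.8 ± 3.28 TPM), Tlr5 (26.9 ± 2.74 TPM), Tlr1 (13.3 ± 3.41 TPM) and Tlr4 (9.77 ± 2.58 TPM). The neighbours Tlr6 and Tlr5 overlapped between libraries, as did Tlr1 and Tlr4, and the other neighbours did not. In unstimulated knockout cells the order of the 8 genes was the same, with Trem3 at 364 ± 19.9 TPM and Tlr4 at 13.4 ± 2.05 TPM.

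With CpG, Cd14 and Tlr2 stood above Trem1 in mean TPM. In knockout cells with CpG, Cd14 averaged 352 ± 108 TPM and Tlr2 295 ± 76.8 TPM, and Trem1 averaged 210.0 ± 27.9 TPM. In wild-type cells with CpG, Tlr2 averaged 252 ± 81.9 TPM and Cd14 249.5 ± 68.0 TPM, and Trem1 averaged 182 ± 40.6 TPM. The library ranges of these 3 genes overlap in both groups. Within every CpG library of both genotypes, however, Cd14 and Tlr2 were each above Trem1. Cd14 was above Tlr2 in each knockout library with CpG, and their order varied among the wild-type ones. Trem3 stayed highest in both, at 464 ± 52.8 TPM in knockout and 376 ± 11.03 TPM in wild-type cells.

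Part of this order changes when curated transcripts alone are counted. In unstimulated wild-type cells Tlr4 then averaged 8.47 ± 1.79 TPM and stood sixth, above Tlr5 (4.003 ± 1.52 TPM) and Tlr1 (1.81 ± 1.204 TPM). Trem1 (118 ± 17.8 TPM) and Tlr2 (109 ± 20.2 TPM) kept their places but were less apart than either SD. The short predicted Trem1 transcript XM_036160714, left out of that count with the other predicted ones, held 4.73% to 10.9% of the Trem1 counts and 19.2% to 36.5% of its TPM.

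**Figure D4:**
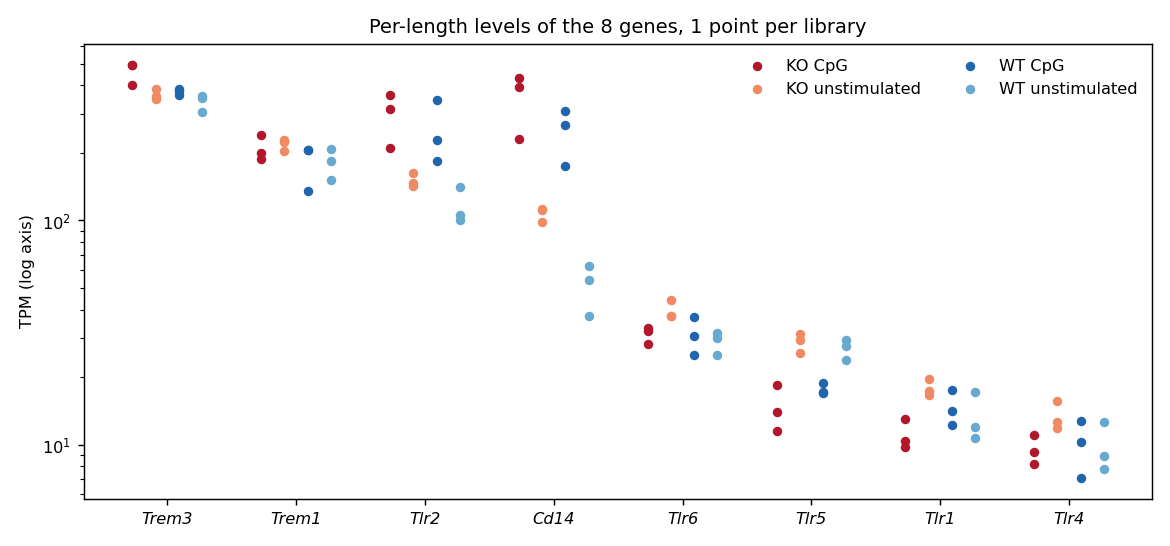
TPM of the 8 genes, summed over transcripts, in each library on a log axis, ordered by the mean in unstimulated wild-type cells, with 1 point per library and colours for the 4 groups. Trem3 is highest in mean in every group, and Cd14 and Tlr2 are the genes whose CpG libraries stand above Trem1 in mean.

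The relative levels of receptor partners differed with CpG. The ratio of Tlr2 TPM to the sum of Tlr1 and Tlr6 TPM was 5.06 to 8.16 in knockout libraries with CpG, against 2.30 to 2.95 in knockout libraries without it. It was 4.202 to 7.69 in wild-type libraries with CpG, against 2.17 to 3.36 in wild-type libraries without it. The ratio of Cd14 TPM to Tlr4 TPM was 24.9 to 52.7 in knockout libraries with CpG and 6.25 to 9.36 in knockout libraries without it. In wild-type libraries this ratio was 20.9 to 29.8 with CpG and 4.84 to 6.12 without it. Both ratios were thus higher in every CpG library than in any unstimulated library. The ratio of Trem3 TPM to Trem1 TPM was 1.67 to 2.61 in knockout and 1.84 to 2.68 in wild-type libraries with CpG, and it was 1.52 to 1.76 in knockout and 1.68 to 2.01 in wild-type libraries without it. These TPM ratios are descriptions with no test.

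Across the 12 libraries, the log2 CPM of Cd14 was most like that of Ciapin1, an iron-sulfur cluster assembly gene (Pearson r = 0.992), Zeb2, a transcription factor gene (0.982), and the cytokine gene Il1b (0.981), out of 7881 genes ranked. Tlr2 was most like Hif1a, the hypoxia-inducible factor gene (0.981), Dtx2 (0.979) and Malt1, a signalling protease gene (0.971). Tlr5 was most like Aga, a lysosomal enzyme gene (0.980), Ermp1 (0.967) and Dym (0.958). Trem3 was most like Myl12b, a myosin light chain gene (0.956), the lysozyme gene Lyz2 (0.954) and Usp4 (0.932). The nearest genes of the other 4 were less alike, at 0.869 for Tlr1 with Cd200r4, 0.897 for Tlr4 with Rnf146, 0.914 for Tlr6 with Rbm39 and 0.912 for Trem1 with Dnaja2. Within the 8 genes, Tlr2 and Cd14 had an r of 0.95, Tlr2 and Tlr5 one of -0.89, and Tlr4 and Tlr6 one of 0.88. The 12 points share their libraries and fall into 4 groups, so these values describe this design alone.

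Genes that carry the signal of these receptors changed in part. Of 11 adaptors and proximal kinases, 3 rose with CpG in knockout cells and 3 in wild-type cells, and none fell, where 7.57% of all genes rose in knockout and 4.74% in wild-type cells. Myd88, the adaptor of the surface receptors and of TLR9 alike, averaged 214 ± 25.2 CPM in knockout cells with CpG and 93.6 ± 7.70 CPM in knockout cells without it (log2 1.19, SE 0.11; adjusted p = 9.77e-06). In wild-type cells Myd88 averaged 179.9 ± 11.1 CPM with CpG and 107 ± 8.96 CPM without it (log2 0.75, SE 0.11; adjusted p = 0.000878). Pik3ap1, an adaptor to PI3-kinase, rose by 0.82 on the log2 scale in knockout and 0.58 in wild-type cells, and the kinase gene Irak2 rose by 0.38 in knockout and 0.45 in wild-type cells. The Irak2 call in knockout cells was lost in edgeR without any 1 of 7 libraries (the 3 knockout unstimulated ones, knockout CpG 1 and 2, wild-type unstimulated 2 and wild-type CpG 1; adjusted p up to 0.132), and its wild-type call without any 1 wild-type library but CpG 3 (up to 0.121). The Pik3ap1 call in wild-type cells was lost without wild-type unstimulated 1 or 3 or CpG 2 (edgeR adjusted p up to 0.102). Curated transcripts alone (edgeR adjusted p = 0.0922) and limma on log2(TPM + 1) (limma adjusted p = 0.0555) lost it too. For Irak2 in knockout cells, library size alone, no filter and the fit of only the libraries compared lost the call (edgeR adjusted p up to 0.0821). So did limma on log2(TPM + 1) (limma adjusted p = 0.199).

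Genes that restrain the pathway included the highest rises of the pathway lists. Of 11 tested of 12 listed, 4 rose and 1 fell in knockout cells, and 3 rose and 1 fell in wild-type cells, against the 11.6% of all genes that passed in knockout and the 6.04% in wild-type cells. Tnfaip3, the ubiquitin-editing inhibitor of NF-kB, averaged 488 ± 32.7 CPM in knockout cells with CpG and 61.6 ± 5.22 CPM without it (log2 2.99, SE 0.18; adjusted p = 1.38e-07). In wild-type cells it averaged 347 ± 68.5 CPM with CpG and 50.3 ± 11.7 CPM without it (log2 2.78, SE 0.18; adjusted p = 4.95e-07). Its partner Tnip1 rose by 2.70 on the log2 scale in knockout and by 1.95 in wild-type cells, and Irak3, a kinase-family protein that holds back the Myd88 complex, rose by 2.26 in knockout and 1.70 in wild-type cells. The ubiquitin ligase gene Rnf125 fell by 1.02 in knockout and by 1.01 in wild-type cells. The genotype difference of Tnip1 with CpG also passed: it averaged 1088 ± 243 CPM in knockout and 586 ± 18.1 CPM in wild-type cells (log2 0.89, SE 0.15; adjusted p = 0.00235), and over curated transcripts alone it did not (edgeR adjusted p = 0.382).

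None of the 10 lipopolysaccharide recognition and surface co-receptor genes passed in any comparison. Ly96, the binding partner of TLR4, averaged 6.12 ± 1.89 CPM in knockout cells with CpG and 5.35 ± 1.38 CPM without it (edgeR adjusted p = 0.776). Of 7 genes for folding and transport of Toll-like receptors, 2 rose in knockout cells and 0 passed in wild-type cells (11.6% of all genes passed in knockout and 6.04% in wild-type cells). These were Rab10, a GTPase of receptor transport (log2 0.53, SE 0.11; adjusted p = 0.00445), and Unc93b1, the chaperone of endosomal receptors (0.48, SE 0.11; adjusted p = 0.0133). In wild-type cells Rab10 had a log2 fold change of 0.37 (adjusted p = 0.0611) and Unc93b1 one of 0.27 (adjusted p = 0.249) in edgeR, and neither interaction passed. Both passed in wild-type cells in the fit that blocks on genotype and number (edgeR adjusted p = 0.00469 for Rab10 and 0.0356 for Unc93b1). In knockout cells the Unc93b1 call was lost in edgeR without knockout unstimulated library 2 or 3 (adjusted p up to 0.0745), and the Rab10 call without both knockout libraries numbered 1 (0.0621). The fit of only the libraries compared lost the Unc93b1 call too (edgeR adjusted p = 0.0522). Limma on log2(TPM + 1) lost the Rab10 call (limma adjusted p = 0.0688).

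Of 10 genes of TREM signalling and its ligand, 2 rose and 1 fell in knockout cells, and 1 rose in wild-type cells. Of all genes 7.57% rose and 4.06% fell in knockout cells, and 4.74% rose in wild-type cells. Malt1, the protease of the Card9 complex, rose by 0.92 on the log2 scale in knockout (SE 0.13; adjusted p = 0.000372) and by 0.94 in wild-type cells (SE 0.13; adjusted p = 0.000518). In knockout cells Vav1, an exchange factor, rose by 0.49 (adjusted p = 0.0206) and the adaptor gene Card9 fell by 0.38 (adjusted p = 0.0368) in edgeR. The Vav1 call was lost in edgeR without knockout unstimulated 2 or 3 or knockout CpG 2 (adjusted p up to 0.107), and the Card9 call without knockout unstimulated 1 or 2 or knockout CpG 2 or 3 (up to 0.147). Library size alone (edgeR adjusted p = 0.0756) and limma on log2(TPM + 1) (limma adjusted p = 0.155) also lost Vav1. No filter, the fit of only the libraries compared and curated transcripts alone lost Card9 (edgeR adjusted p up to 0.0780). With that block both passed in wild-type cells too (edgeR adjusted p = 0.00153 for Vav1, log2 0.44, and 0.0325 for Card9, log2 -0.27). The adaptor gene Lat2 was lower in knockout than in wild-type cells with CpG, at 7.56 ± 1.84 CPM against 21.4 ± 8.53 CPM (log2 -1.51, SE 0.34; adjusted p = 0.0244). That call was lost without wild-type CpG 1 or 3 or knockout CpG 2 (edgeR adjusted p up to 0.131) and over curated transcripts alone (0.283). It was lost too without both knockout libraries numbered 1 (edgeR adjusted p = 0.0534). Unstimulated cells had a gap in the same direction that did not pass, at 11.7 ± 3.44 CPM in knockout and 26.3 ± 9.28 CPM in wild-type cells. Among the other genes of the TREM cluster, 1 of the 3 tested of 4 listed rose in both genotypes, Treml4, where 7.57% of all genes rose in knockout and 4.74% in wild-type cells. It averaged 83.9 ± 18.8 CPM in knockout cells with CpG and 33.9 ± 4.55 CPM without it (log2 1.31, SE 0.17; adjusted p = 0.000119). In wild-type cells it averaged 57.7 ± 6.78 CPM with CpG and 28.5 ± 2.34 CPM without it (log2 1.02, SE 0.17; adjusted p = 0.00163).

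The endosomal Toll-like receptor genes, given for comparison, moved both ways. Of 4 tested, 2 rose and 1 fell in each genotype, where 11.6% of all genes passed in knockout and 6.04% in wild-type cells. Tlr9, the receptor of CpG-B, rose by 1.68 on the log2 scale in knockout cells (SE 0.23; adjusted p = 0.000265) and by 1.42 in wild-type cells (SE 0.23; adjusted p = 0.00154). Tlr7, a receptor of single-stranded RNA, rose by 0.88 in knockout and 0.57 in wild-type cells, and Tlr8 fell by 0.65 in knockout and 0.60 in wild-type cells. In wild-type cells the Tlr7 call was lost in edgeR without any 1 wild-type library but CpG 3 (adjusted p up to 0.135), and the Tlr8 call without any 1 wild-type library or knockout unstimulated 2 (up to 0.120). Over curated transcripts alone both wild-type calls were lost too (edgeR adjusted p = 0.134 for Tlr7 and 0.112 for Tlr8). The wild-type Tlr7 call was also lost with library size alone (edgeR adjusted p = 0.0851) and in limma on log2(TPM + 1) (limma adjusted p = 0.128). Leaving out both knockout libraries numbered 1 lost it as well (edgeR adjusted p = 0.0511). In knockout cells the Tlr8 call was lost in edgeR without knockout unstimulated 1 or knockout CpG 2 (adjusted p up to 0.0701). The fit of only the libraries compared lost it too (edgeR adjusted p = 0.0522). No gene of these lists passed the interaction test.

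**Figure D5:**
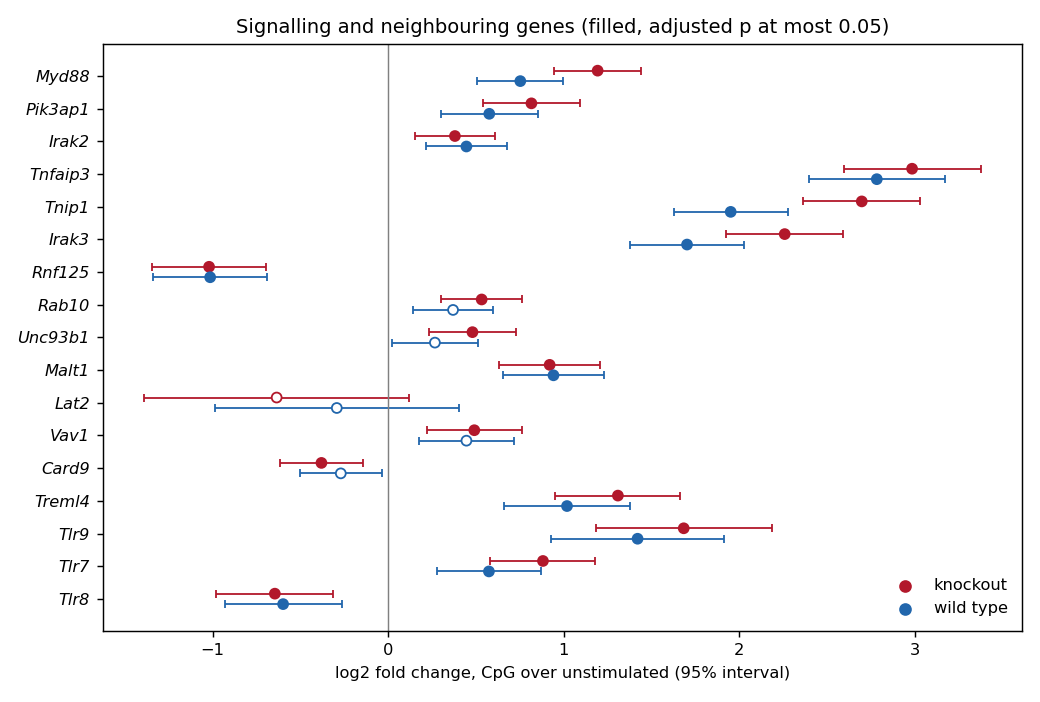
Log2 fold change of CpG over unstimulated cells, with 95% intervals from the edgeR fit, for the genes named from the lists of adaptors, restraint, folding, TREM signalling, TREM cluster and endosomal receptors. Filled points have an adjusted p of at most 0.05. Tnfaip3, Tnip1 and Irak3 reach 1.70 to 2.99, and Rnf125, Tlr8 and, in knockout cells, Card9 are the filled points below 0.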

How the data were processed

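RNA of 12 libraries in 4 groups was measured by polyA RNA-seq. The tools, per the submitters' processing notes, were Bowtie2 and RSEM 1.2.28 with build GRCm39. The sources used here do not give strandedness or filters. The deposited tables hold estimated counts per RefSeq transcript, which entered all count tests unscaled. The deposited TPM, made by the authors to sum to 1000000 in each library, were used for levels between genes. The deposited FPKM, which the authors scaled for length and depth, were left out.

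Estimated counts (45.0% to 49.6% not whole) were summed per NCBI gene and rounded. Of 15986 genes, 15883 matched a symbol in RefSeq GRCm38.p6, an earlier build used only for names, neighbours and promoter sequence, and transcript stretches shared between genes were found in GENCODE transcripts. Genes were filtered with filterByExpr (count 10, total 15) and scaled by TMM (edgeR 4.0.16, R 4.3.3). A quasi-likelihood model with 4 group means was fitted to the 12 libraries (8 residual degrees of freedom, common dispersion 0.0293). The 5 comparisons were CpG in each genotype, genotype in each condition, and their interaction, called at an adjusted p of at most 0.05. SE is the log2 fold change over the root of F. The fit was also run on simulated counts drawn independently for each library. That simulation held no effect of library number, so it does not bear on such effects in these data. Two-sided tests were used throughout. Replicates of a group differed beyond sampling noise in every pair (chi-square per degree of freedom 7.69 to 47.5), so none was merged.

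Same-numbered wild-type libraries had residual correlations of 0.28, 0.41 and 0.44, all above 0.1, so their numbers were taken to pair them. The pairing entered the separate wild-type ratios and the block on genotype and number. The calls come from the fit without it.

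Alternatives were other scaling, DESeq2 1.42.0, limma 3.58.1 on log2(TPM + 1), other filters, a fit of only the libraries compared, curated transcripts only, replicate blocks, each library left out, and, added after the data were seen, both knockout libraries numbered 1 or 3 left out. Named genes were the 8 members, for each of them the 3 genes most correlated over the libraries (mean of at least 5 CPM), and up to 4 called genes per pathway list by largest CpG change; Ly96, Csf1r and Adgre1 were named outside that rule after their values were seen. The 8 genes, the pathway lists and the marker lists were chosen with earlier results of these data known. Promoters of Cd14, Tlr4 and Trem3 and the restraint gene Sarm1 were not analysed here.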

Additional observations from a re-analysis of the deposited data

How the results depend on the processing

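Across the alternatives run, 917 of the log2 fold changes of the 8 genes kept their side of the threshold, 24 no longer passed and 11 newly passed. No fold change that passed in either fit changed sign. Of the 917, 52 changed sign, all of them fold changes that passed in neither fit and at most 0.23 in size afterwards. For CpG in knockout cells, 2 of the 8 genes passed over curated transcripts only and 3 without both knockout libraries numbered 1, and 3 to 5 with 1 library left out, against 5 with all data. For knockout against wild type in unstimulated cells, 0 or 1 of the 8 passed with 1 library left out, and for CpG in wild type 2 or 3. In wild type the gain was Tlr5, whose edgeR adjusted p ran from 0.0163 to 0.209 with 1 library left out. DESeq2, scaling by library size alone, limma on TPM, no filter and the fit of only the libraries compared also gave 3 in wild-type cells.

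Same-numbered knockout libraries correlated at 0.62, 0.09 and 0.68, not all above 0.1, so they were paired only in the block on genotype and number. The value of number 2, 0.085, fell just short of that cutoff, so a pairing of the knockout libraries is not excluded. As a hint from the data, each correlated best with its own number, and erythroid and B cell marker sums were close within a number. With replicate number as a block, no count of the 8 genes changed. With genotype and number together as the replicate block, 6 of the 8 passed for CpG in knockout cells, Tlr4 among them (log2 -0.36; adjusted p = 0.0226), 3 passed in wild-type cells, and the interaction of Tlr1 had an adjusted p of 0.0997 in edgeR. The block changed no other call among the 8 genes.

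Genes called moved by over 1.5 times in some settings. For CpG in knockout cells they were 1257 with all data, 2591 with the block on genotype and number and 818 without knockout unstimulated library 2. For CpG in wild-type cells they were 652, against 1824 with the block on genotype and number and 425 over curated transcripts. For knockout against wild type in unstimulated cells they were 513, against 283 over curated transcripts, 341 without both knockout libraries numbered 1 and 278 to 604 with 1 library left out. For knockout against wild type with CpG they were 423, against 716 in DESeq2, 253 in the fit of only the libraries compared, 227 over curated transcripts, 824 without both knockout libraries numbered 3 and 234 to 699 with 1 library left out. The interaction had 0, against 2 in DESeq2 and 13 with the block on genotype and number. Without both knockout libraries numbered 1, Irak2, Rab10 and Vav1 lost their calls in knockout cells, and without both numbered 3, Irak2, Vav1, Card9 and Tlr8 did. The cause of these shifts was not tested. Depth limits Tlr1 most, with 253 to 466 estimated counts per library, against 526 to 6633 for Cd14.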
